A study of Mus musculus with 16 samples.

Results

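Transcripts of 10 genes that mark astrocytes, Gfap, Aqp4, Aldh1l1, Aldoc, Fgfr3, Slc1a2, Slc1a3, Glul, Gja1 and Gjb6, were followed through sleep disruption and loss of an isoform of the interleukin-1 receptor accessory protein in mouse cortex. They were taken by gene symbol from RNA-seq tables of 24421 genes, and all 10 were found and had reads in every library. Astrocytes are the glial cells that take up synaptic glutamate, turn it into glutamine for neurons, buffer potassium and water at the endfeet they lay around blood vessels, and join one another into networks through gap junctions. In cortex they are known to respond to sleep and waking with changes in metabolism, in glutamate uptake and in the reach of their fine processes. The genes fall by role into a filament protein (Gfap), a water channel (Aqp4), enzymes (Aldh1l1, Aldoc), a growth factor receptor (Fgfr3), the glutamate and glutamine pathway (Slc1a2, Slc1a3, Glul) and the gap junction proteins (Gja1, Gjb6).

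The samples were total RNA of somatosensory cortex from mice labelled male and aged 2 to 3 months, with 3 libraries in each of 4 groups. Wild-type (WT) mice were C57BL/6, and the knockout mice were homozygous AcPb-/- animals, in which AcPb, the isoform of the interleukin-1 receptor accessory protein (gene Il1rap) that neurons make, is deleted. Sleep disruption (SD) was done by gentle handling for 8 h, from zeitgeber time (ZT) 20 to ZT4, and both the SD mice and the undisturbed controls (CTL) of each genotype were killed at ZT4. The comparisons ask what SD does to each gene in WT and in AcPb-/- cortex, whether the genotypes differ at rest or after SD, and whether the SD effect depends on genotype. The cortex was bulk tissue, so fewer astrocytes and less RNA per astrocyte cannot be told apart.

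The libraries held 26504840 to 71857505 reads, and every SD library was deeper than every CTL library, the lowest SD total being 1.41 times the highest CTL total. Il1rap, the targeted gene, had 933 to 1360 reads in the CTL libraries and 2314 to 2946 in the SD libraries, of both genotypes, and a count over the whole gene cannot show the loss of an isoform. These reads are not scaled for depth. After scaling, Il1rap was 1.22-fold higher in SD than in CTL libraries in WT and 1.25-fold in AcPb-/-. Against the male label, 4 libraries had 25352 to 39358 reads of Xist and at most 2 reads of Y-linked genes, while the other 8 had 5 to 13 reads of Xist and 5105 to 10593 of the Y-linked genes. All 4 were controls, namely CTL-WT replicates 2 and 3 and CTL-AcPb-/- replicates 4 and 5. Results are therefore also given from a fit of all 12 libraries with a term for Xist and from a fit of the 8 libraries without it, in which each CTL group is 1 library, assumed to vary like the others. SD-AcPb-/- replicate 4 stood apart in choroid plexus and ependymal markers, whose summed level was 1086 TPM (a transcript share corrected for exon length and scaled to the same total in every library) there against 15.5 to 40.7 elsewhere. Markers of striatal neurons summed to 632 TPM in CTL-WT replicate 1 and to 329 to 560 TPM in the other libraries. That replicate, the only WT control without Xist, was also highest in oligodendrocyte markers, at 2512 against 998 to 2223 TPM elsewhere.

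The labelled tissue was checked against the other cell types that cortex holds. Summed over 10 genes each, neuronal markers stood at 12160 to 14382 TPM, oligodendrocyte markers at 998 to 2512 and microglial markers at 493 to 659, and no gene of these lists was at 0 in any library. The 10 astrocyte genes together stood at 4819 to 6401 TPM and took 0.704 to 0.859% of all reads.

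Levels per length, in TPM over the annotated exons, put Glul far above the rest. Glul, which encodes glutamine synthetase, averaged 2287 TPM over the 12 libraries and ranked 17th of 20113 genes. Slc1a2, the main glutamate transporter of cortical astrocytes (GLT-1), averaged 1135 TPM, and Aldoc, the brain aldolase, 985 TPM. Their library ranges overlapped, although Slc1a2 was the higher of them in 11 of 12 libraries. Slc1a3, the other astrocytic glutamate transporter (GLAST), followed at 534 TPM and Gja1, which encodes connexin 43, at 187 TPM, each apart from its neighbours in every library.

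The remaining 5 genes lay close to one another in level. Gjb6, which encodes connexin 30, averaged 117 TPM, Fgfr3, a receptor for fibroblast growth factors, 106 TPM, and Gfap, the intermediate filament protein of astrocytes, 96.4 TPM. Aqp4, the water channel of the endfeet, averaged 69.6 TPM and Aldh1l1, a folate enzyme widely used as an astrocyte marker, 61.9 TPM. Neighbouring genes in this order overlapped in their ranges, and Gjb6 exceeded Fgfr3 in 8 of 12 libraries and Fgfr3 exceeded Gfap in 7 of 12.

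**Figure D1:**
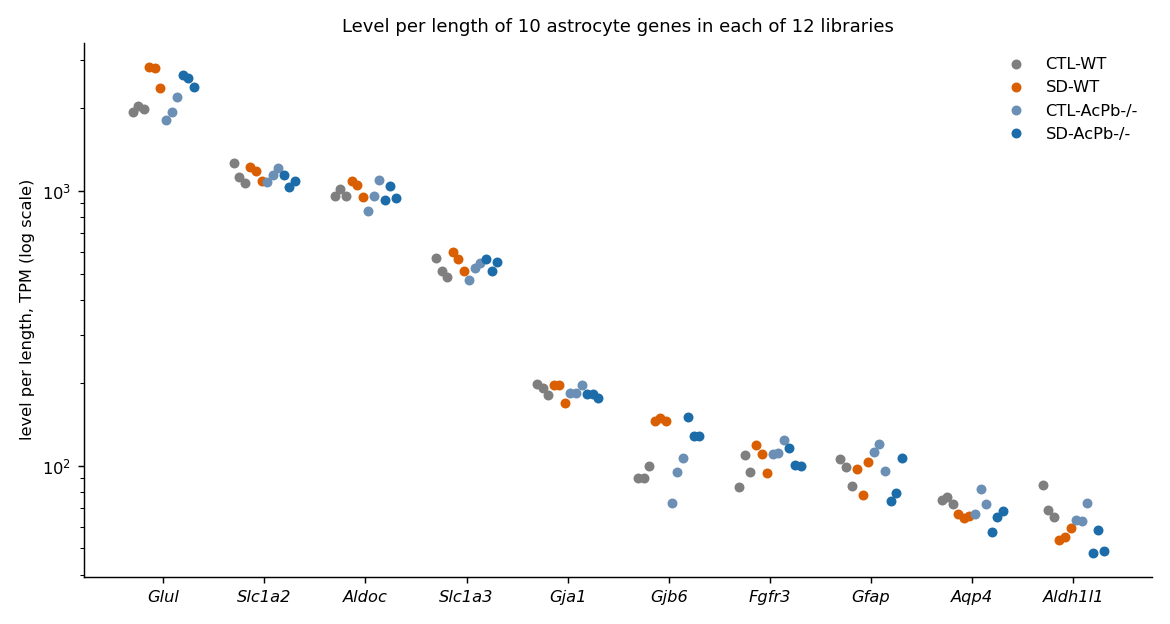
Level per length of each of the 10 astrocyte genes in the 12 libraries, in TPM on a log axis, with genes ordered by mean and points coloured by group. Glul was highest in all 12 libraries, and the 5 genes from Gjb6 to Aldh1l1 averaged between 61.9 and 117 TPM.

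SD changed 4 of the 10 genes in WT cortex and 3 in AcPb-/- cortex, by limma on log2(normalized count + 1) with p-values adjusted over all genes tested and a threshold of 0.05. Gjb6 and Glul rose and Aldh1l1 fell in both genotypes. Aqp4 fell in WT and did not pass in AcPb-/-, and the difference between genotypes did not pass for any of them. The other 6 genes, which include both glutamate transporters, Gja1 and Gfap, did not pass in either genotype. The share of all genes called was 25.4% in WT, with 13.2% rising and 12.2% falling, and 27.4% in AcPb-/-, with 14.1% rising and 13.3% falling. A count of 4 or of 3 in 10 therefore lies near the share over all genes, and the list as a whole did not stand apart. The median log2 fold change of the 10 genes was 0.07 in WT and -0.06 in AcPb-/-, against -0.004 and 0.014 over all genes tested.

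Where the members stood in the genome bears on how their reads could be counted, and the promoters of the 3 genes that changed in both genotypes are shown because Gjb6 and Glul moved together and Aldh1l1 moved the other way. The sequences are the 250 bases before the RefSeq transcription start in build GRCm38.p6, written 5′ to 3′ along the gene's strand. Capitals mark matches, on either strand, to any of 9 motifs: the CCAAT box CCAAT, the nuclear factor I site TTGGC, the E-box CACGTG, the cAMP response element TGACGTCA and its core TGACG, the full glucocorticoid response element and its hexamer AGAACA, the TATA box TATAAA, and the STAT element TTCNNNGAA.
Gjb6 promoter, chr14:57133612-57133861, minus strand: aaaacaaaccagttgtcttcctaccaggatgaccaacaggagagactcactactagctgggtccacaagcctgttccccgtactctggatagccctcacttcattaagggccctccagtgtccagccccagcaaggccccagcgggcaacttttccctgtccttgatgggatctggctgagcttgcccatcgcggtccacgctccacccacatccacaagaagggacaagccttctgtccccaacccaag
Glul promoter, chr1:153899679-153899928, plus strand: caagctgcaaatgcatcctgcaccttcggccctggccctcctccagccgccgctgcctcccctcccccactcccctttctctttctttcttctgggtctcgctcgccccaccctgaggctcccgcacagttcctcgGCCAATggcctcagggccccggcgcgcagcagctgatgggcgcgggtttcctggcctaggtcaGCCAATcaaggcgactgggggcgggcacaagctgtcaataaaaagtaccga
Aldh1l1 promoter, chr6:90550543-90550792, plus strand: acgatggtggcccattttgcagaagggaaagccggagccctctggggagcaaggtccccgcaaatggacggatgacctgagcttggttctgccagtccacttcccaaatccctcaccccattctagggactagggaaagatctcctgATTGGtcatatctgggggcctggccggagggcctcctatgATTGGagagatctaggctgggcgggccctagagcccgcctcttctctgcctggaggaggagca
The Gjb6 window held none of the 9 motifs. The Glul window held CCAAT at 50 and at 113 bases before the start, and each match overlapped a nuclear factor I site read on the other strand. The Aldh1l1 window held CCAAT on the minus strand, 63 to 59 and 103 to 99 bases before the start.

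These letters were common in promoters at large. Of 32851 RefSeq promoters cut to the same length, 33.85% held CCAAT and 41.51% held TTGGC. The core TGACG was in 17.77%, AGAACA in 16.08%, TATAAA in 12.37%, TTCNNNGAA in 7.02%, CACGTG in 6.02%, TGACGTCA in 1.55% and the full glucocorticoid response element in 0.01% of them. Among astrocyte genes that SD did not change, Slc1a3 held 3 matches of CCAAT and Slc1a2 held 1 of TTGGC. GC content of the windows was 56.8% for Gjb6, 64.8% for Glul and 59.6% for Aldh1l1, against a median of 52.4% over all promoters.

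Gjb6 showed the largest SD response of the 10. Connexin 30 forms gap junctions between astrocytes together with connexin 43, and it lies on the minus strand of chromosome 14 (chr14:57123303-57133611) in 3 exon blocks. Normalized counts, with all 12 libraries scaled together here and below, were 2519, 2497 and 2783 in CTL-WT and 4109, 4241 and 4095 in SD-WT. In AcPb-/- mice they were 2019, 2649 and 2997 in CTL and 4194, 3544 and 3554 in SD. All 6 SD libraries lay above all 6 CTL libraries, and CTL-AcPb-/- replicate 3 was the lowest of the 12.

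In the fit of each comparison Gjb6 rose by 0.67 ± 0.06 log2 (SE, n = 3 against 3; adjusted p = 2.14e-04, limma) in WT, which is 1.60-fold. In AcPb-/- it rose by 0.58 ± 0.14 log2 (adjusted p = 0.0150, limma), or 1.49-fold. Over both genotypes the estimate was 0.62 ± 0.08 (adjusted p = 5.93e-05, limma, 12 libraries). With a term for Xist the values were 0.86 in WT and 0.76 in AcPb-/- (adjusted p = 9.06e-04 and 7.55e-04, limma), and without the 4 Xist libraries 0.72 and 0.90 (adjusted p = 0.0433 and 0.0231, limma). Without SD-AcPb-/- replicate 2 the AcPb-/- estimate was 0.49 and missed the threshold (adjusted p = 0.0778, limma).

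Gja1, the partner connexin, gave another picture. It stands on the plus strand of chromosome 10 (chr10:56377330-56402513). Its normalized counts were 8909, 8485 and 8033 in CTL-WT, 8910, 8948 and 7643 in SD-WT, 8099, 8202 and 8797 in CTL-AcPb-/- and 8204, 8064 and 7862 in SD-AcPb-/-. The groups overlapped throughout, and across the 12 libraries the highest value was only 1.17 times the lowest. The SD difference was 0.00 log2 in WT, with a 95% confidence interval from -0.16 to 0.17, and -0.05 in AcPb-/-, from -0.18 to 0.08. An effect on Gja1 as large as the estimate for Gjb6 thus lay outside both intervals.

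The ratio of Gjb6 to Gja1, per length, was formed after these values had been seen and is given without a test. It was 0.399 to 0.555 in the 6 CTL libraries and 0.704 to 0.858 in the 6 SD libraries, with no overlap. Gjb2, which encodes connexin 26, the close neighbour and partner of connexin 30, fell by 0.47 log2 in WT (adjusted p = 0.0114, limma), from 545 to 678 normalized counts in CTL to 411 to 489 in SD, and stood at -0.32 in AcPb-/- (adjusted p = 0.163). The WT call was lost with a term for Xist (-0.35, adjusted p = 0.18, limma) and in the 8 libraries without Xist (-0.58, adjusted p = 0.0983, limma). The per-length ratio of Gjb6 to Gjb2 was 4.14 to 5.24 in CTL and 7.18 to 11.8 in SD libraries.

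Of the 15 connexins and gap junction partners, 2 rose and 4 fell in WT, and 2 rose and none fell in AcPb-/-, by limma. The list includes Gja1 and Gjb6, and the genes that rose in both genotypes were Gjb6 and Tjp1. Of all genes, 13.2% rose and 12.2% fell in WT, and 14.1% rose and 13.3% fell in AcPb-/-. The median over the list was -0.04 log2 in WT and -0.05 in AcPb-/-. Tjp1, the scaffold protein ZO-1 that binds connexins, rose by 0.30 in WT (adjusted p = 0.0211) and 0.36 in AcPb-/- (adjusted p = 0.00906). Gjd2, a connexin of neurons, fell by 0.62 in WT (adjusted p = 0.00516), and its estimate in AcPb-/- was -0.29 and did not pass.

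Glul was the most abundant of the 10 and the next to rise. Glutamine synthetase joins ammonia to the glutamate that astrocytes take up, and the gene lies on chromosome 1 (chr1:153899944-153909723, plus strand). Normalized counts were 71751, 74575 and 73066 in CTL-WT and 105572, 104991 and 88410 in SD-WT. In AcPb-/- they were 66229, 71413 and 81004 in CTL and 97783, 94216 and 87786 in SD. All 6 SD libraries exceeded all 6 CTL libraries, and SD-WT replicate 4 was the lowest of the SD-WT group.

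The rise of Glul was 0.44 ± 0.09 log2 (SE, n = 3 against 3; adjusted p = 0.00622, limma) in WT and 0.36 ± 0.10 (adjusted p = 0.0264, limma) in AcPb-/-, or 1.36-fold and 1.29-fold. Over both genotypes it was 0.40 ± 0.07 (adjusted p = 3.70e-04, limma). The term for Xist gave 0.52 and 0.44 (adjusted p = 0.00757 and 0.0128, limma). The 8 libraries without Xist gave 0.47 and 0.50, which missed the threshold (adjusted p = 0.101 and 0.0713, limma). In AcPb-/- the call was also lost without CTL-AcPb-/- replicates 3 or 4 or SD-AcPb-/- replicates 2 or 3, with adjusted p up to 0.0935. Of the gene's 100-base stretches, 1.77% were shared with the pseudogene Glns-ps1, and exons of Teddm2 and Mir8114 overlapped it over 160 bases, so a small part of its reads is uncertain.

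The transporters that bring glutamate to this enzyme did not pass in any comparison. Slc1a2 lies on chromosome 2 (chr2:102658659-102790784, plus strand), and its 166 bases of overlap with Gm13872 on the other strand are a small part of 12092 exon bases. It had normalized counts of 202364, 178411 and 170940 in CTL-WT, 197751, 192583 and 174935 in SD-WT, 170501, 182178 and 194804 in CTL-AcPb-/-, and 183547, 164477 and 171934 in SD-AcPb-/-. The groups overlapped, and the SD difference was 0.04 log2 (95% confidence interval -0.19 to 0.26) in WT and -0.07 (-0.31 to 0.16) in AcPb-/-.

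Slc1a3 lies on chromosome 15 (chr15:8634124-8710764, minus strand). Its normalized counts were 33450, 29649 and 28202 in CTL-WT, 35230, 33420 and 30201 in SD-WT, 27165, 30543 and 31758 in CTL-AcPb-/-, and 33239, 29489 and 31866 in SD-AcPb-/-. Means were somewhat higher after SD, but the groups overlapped in both genotypes. The difference was 0.11 log2 (95% confidence interval -0.07 to 0.30) in WT and 0.08 (-0.10 to 0.27) in AcPb-/-.

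Relative to Slc1a2, per length, Glul stood at 1.54 to 1.85 in the 6 CTL libraries and 2.19 to 2.48 in the 6 SD libraries. The ratio of Slc1a2 to Slc1a3 was 2.17 to 2.29 in CTL and 1.97 to 2.11 in SD libraries, so these ranges also lay apart, by a small margin. Both ratios are descriptions chosen after the values were seen. Among the other carriers, Slc1a1, the neuronal glutamate transporter, rose by 0.25 log2 in AcPb-/- (adjusted p = 0.0344, limma) and stood at 0.19 in WT (adjusted p = 0.0665). That call was kept in 2 of 6 fits with a library left out and was lost with a term for Xist (0.18, adjusted p = 0.154, limma) and in the 8 libraries without Xist (0.15, adjusted p = 0.445, limma). Slc1a4, a neutral amino acid transporter of the same family, fell by 0.25 in AcPb-/- (adjusted p = 0.0217, limma) and stood at -0.10 in WT (adjusted p = 0.313), and its call too was lost with a term for Xist (-0.21, adjusted p = 0.0705, limma).

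In the wider pathway of glutamate, glutamine and GABA handling, 18 genes were tested. In WT 1 rose and 4 fell, and in AcPb-/- 2 rose and 6 fell, by limma, with list medians of -0.18 and -0.19 log2. The share of all genes called was 25.4% in WT and 27.4% in AcPb-/-, with 12.2% and 13.3% falling. Slc7a11, the cystine and glutamate exchanger, fell by 0.68 in WT (adjusted p = 0.00316) and 0.81 in AcPb-/- (adjusted p = 4.45e-04), from 2430 to 3860 normalized counts in the CTL libraries to 1530 to 2065 in the SD libraries. Pcx, pyruvate carboxylase, the enzyme by which astrocytes refill the cycle that makes new glutamate, fell by 0.46 and 0.54 (adjusted p = 0.00125 and 0.00202). Slc38a1, a neuronal glutamine transporter, rose by 0.25 in WT (adjusted p = 0.0211) and by 0.33 in AcPb-/- (adjusted p = 0.00431), and its WT call was lost with a term for Xist (adjusted p = 0.0528).

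**Figure D2:**
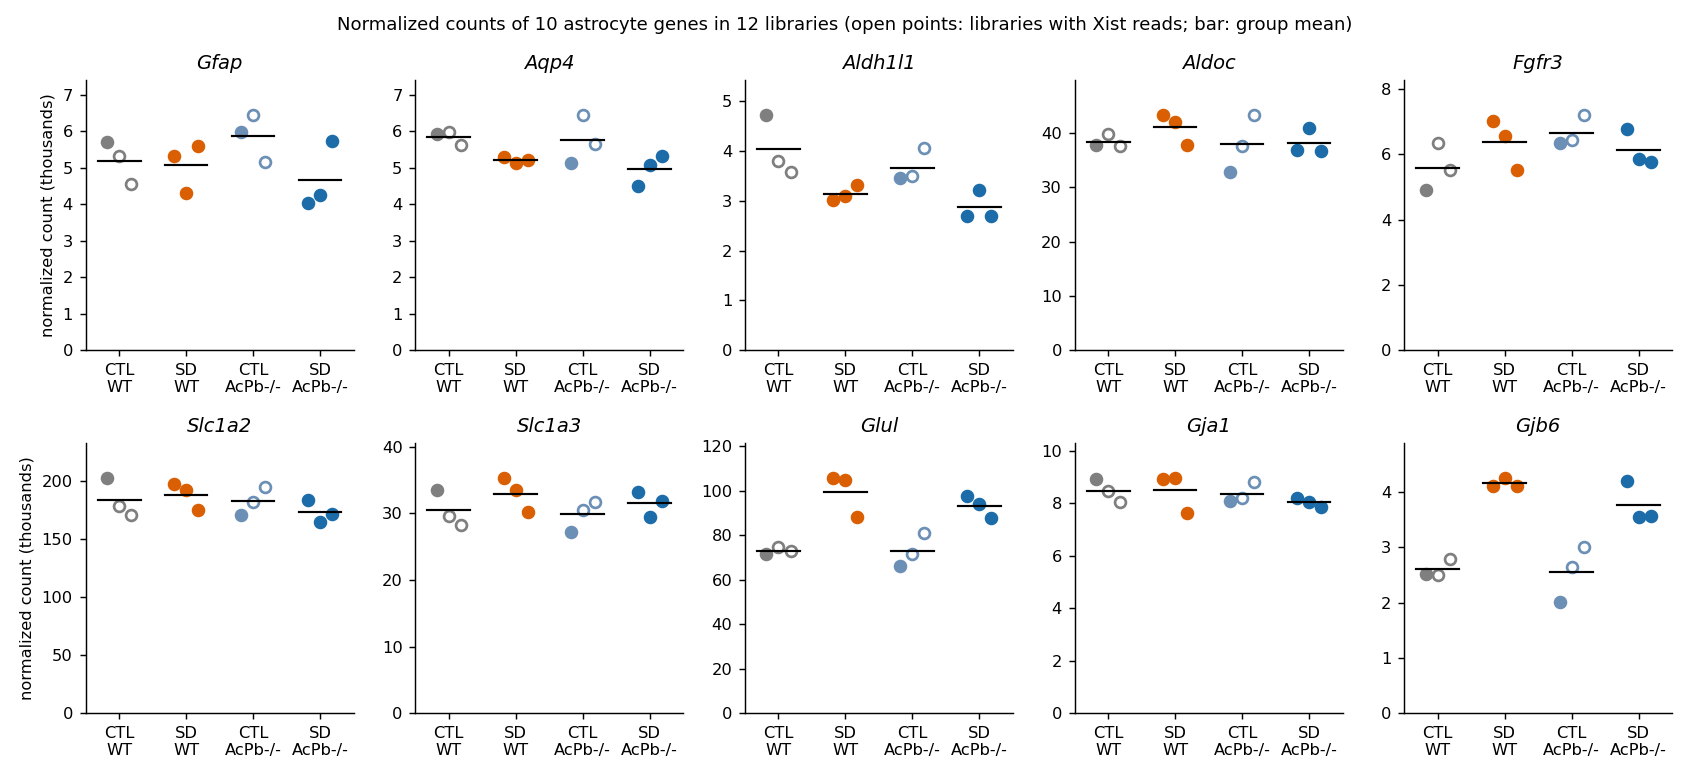
Normalized counts of the 10 astrocyte genes in each of the 12 libraries, by group, with the group mean as a bar and the 4 libraries with Xist reads as open points. SD points lie above all CTL points for Gjb6 and Glul and below all CTL points for Aldh1l1, and the groups overlap for Gfap, Gja1, Slc1a2, Slc1a3, Aldoc and Fgfr3.

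Aldh1l1 fell by the same amount in both genotypes. The enzyme, 10-formyltetrahydrofolate dehydrogenase, takes one-carbon units out of the folate pool, and the gene lies on chromosome 6 (chr6:90486427-90600203, plus strand). Normalized counts were 4725, 3803 and 3578 in CTL-WT and 3012, 3091 and 3311 in SD-WT. In AcPb-/- they were 3456, 3491 and 4052 in CTL and 2685, 3223 and 2698 in SD. The 6 SD libraries lay below the 6 CTL libraries, by a narrow margin between SD-WT replicate 4 and CTL-AcPb-/- replicate 3, and CTL-WT replicate 1 was well above all others.

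The decline was 0.35 log2 in each genotype, written as -0.35 ± 0.10 (SE, n = 3 against 3; adjusted p = 0.0213, limma) in WT and -0.35 ± 0.09 (adjusted p = 0.0218, limma) in AcPb-/-, a fold of 0.78. Over both genotypes it was -0.35 ± 0.07 (adjusted p = 0.00173, limma). With a term for Xist it was -0.43 in each (adjusted p = 0.0300 and 0.0237, limma). Without the Xist libraries it was -0.59 in WT, where the lone control is the high CTL-WT replicate 1, and -0.27 in AcPb-/-, and neither passed (adjusted p = 0.0598 and 0.198, limma). The WT call was lost without SD-WT replicate 1 or 2, and the AcPb-/- call without CTL-AcPb-/- replicates 4 or 5 or SD-AcPb-/- replicates 2 or 4, with adjusted p up to 0.0942. The exons share 438 bases with Gm15756 on the other strand.

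In the folate pathway around this enzyme, 1 of 14 genes rose and 1 fell in WT and 3 rose and 2 fell in AcPb-/-, by limma, with list medians of 0.07 and 0.12 log2. Of all genes, 25.4% were called in WT and 27.4% in AcPb-/-. Mthfd1l, the mitochondrial enzyme that makes formate, fell by 0.92 in WT (adjusted p = 0.00258) and by 0.74 in AcPb-/- (adjusted p = 0.00708). With a term for Xist these changes were smaller, at -0.57 and -0.40 (adjusted p = 0.00904 and 0.0360), and in the 8 libraries without Xist they were -0.51 and -0.46 and did not pass (adjusted p = 0.0905 and 0.0858). Amt, of the glycine cleavage system, rose by 0.25 in WT and by 0.24 in AcPb-/- (adjusted p = 0.0212 and 0.0188, limma). Shmt1, cytosolic serine hydroxymethyltransferase, rose by 0.46 in AcPb-/- (adjusted p = 0.0330, limma). With a library left out, the Amt call was kept in 2 of 6 fits in WT and in 3 of 6 in AcPb-/-, and the Shmt1 call in 0 of 6. The paralog Aldh1l2, the mitochondrial form of Aldh1l1, stood at 0.25 in WT (adjusted p = 0.0687) and 0.21 in AcPb-/- (adjusted p = 0.290), opposite in sign to Aldh1l1.

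Aqp4 showed a small decline. It carries water across the endfeet and is encoded on chromosome 18. Its normalized counts were 5914, 5988 and 5630 in CTL-WT and 5296, 5130 and 5209 in SD-WT, without overlap. In AcPb-/- they were 5136, 6447 and 5662 in CTL and 4509, 5079 and 5335 in SD, where SD-AcPb-/- replicate 4 lay above CTL-AcPb-/- replicate 3.

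The WT difference of Aqp4 was -0.17 ± 0.05 log2 (SE, n = 3 against 3; adjusted p = 0.0477, limma), a fold of 0.89, and that in AcPb-/- was -0.20 ± 0.09 (adjusted p = 0.149, limma). Over both genotypes it was -0.19 ± 0.06 (adjusted p = 0.0173, limma). That call was kept in 12 of 12 fits with a library left out and was lost with a term for Xist (-0.12, adjusted p = 0.279, limma). In the 8 libraries without Xist the estimate over both genotypes was -0.11. The WT call was lost in 5 of 6 fits with a library left out, with a term for Xist (-0.10, adjusted p = 0.529) and in the 8 libraries without Xist (-0.18, adjusted p = 0.300), so it rests on the exact choice of libraries.

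Of 12 perivascular endfoot genes, 6 fell and none rose in WT, and 6 fell and 1 rose in AcPb-/-, by limma, with list medians of -0.15 and -0.12 log2. Over all genes 25.4% were called in WT, 12.2% falling, and 27.4% in AcPb-/-, 13.3% falling. Among genes with a mean of at least 1000 normalized counts, 38.8% were called in WT and 43.3% in AcPb-/-. Of this list only Agt lay below that mean in WT. Kcnj10, Mlc1, Hepacam and Slc4a4 of this list are also counted among the further astrocyte markers below. Gpr37l1, an astrocytic receptor, fell by 0.58 in WT (adjusted p = 8.42e-04) and by 0.74 in AcPb-/- (adjusted p = 0.00263), from 8484 to 10904 normalized counts in the CTL libraries to 5080 to 6755 in the SD libraries. Lgi4, a secreted glial protein, fell by 0.46 and 0.73 (adjusted p = 0.00252 and 0.00278). With a term for Xist, Gpr37l1 stood at -0.57 and -0.74 and Lgi4 at -0.51 and -0.79. In the 8 libraries without Xist, with 1 library in each CTL group, Gpr37l1 stood at -0.73 and -0.58 and Lgi4 at -0.58 and -0.72. Hepacam, a cell adhesion molecule of glia, rose by 0.25 in AcPb-/- (adjusted p = 0.0490), a call that was lost with a term for Xist (0.17, adjusted p = 0.493), in the 8 libraries without Xist (adjusted p = 0.589) and in each of the 6 fits with a library left out. Of the other aquaporins, limma called 0 of 6 tested in WT and 0 of 5 in AcPb-/-, with 0 and 2 at an unadjusted p under 0.05, and edgeR and DESeq2 each called 0 and 1.

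Gfap, the filament protein that rises when astrocytes become reactive, did not pass in either genotype. The gene lies on chromosome 11 (chr11:102887336-102900912, minus strand). Its normalized counts were 5710, 5310 and 4543 in CTL-WT, 5331, 4307 and 5595 in SD-WT, 5983, 6447 and 5166 in CTL-AcPb-/- and 4037, 4253 and 5724 in SD-AcPb-/-. The groups overlapped, and the standard deviation within a group was 11.1 to 19.7% of its mean, the widest of the 10 genes at the upper end. The SD difference was -0.03 log2 (95% confidence interval -0.27 to 0.20) in WT and -0.34 (-0.64 to -0.03; adjusted p = 0.0950, limma) in AcPb-/-. SD-AcPb-/- replicate 4, the library with choroid plexus and ependymal transcripts, held the high value of its group, and without it the AcPb-/- estimate was -0.49 and passed (adjusted p = 0.0165, limma).

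The other intermediate filament genes moved in both directions where they passed. Of 11 on the list, 4 rose and 2 fell in WT, and 4 rose and 1 fell in AcPb-/-, by limma. The share of all genes called was 25.4% and 27.4%. The members that rose most were neuronal: Nefm, the medium neurofilament chain, by 0.85 and 1.24 (adjusted p = 5.99e-04 and 5.06e-04), and Nefh, the heavy chain, by 0.50 and 1.02 (adjusted p = 0.0188 and 0.00348). Vim, the vimentin that shares filaments with Gfap, rose by 0.25 in WT (adjusted p = 0.0430) and stood at 0.01 in AcPb-/- (adjusted p = 0.935). With a term for Xist the WT calls of Vim (0.20, adjusted p = 0.152) and Nefh (0.60, adjusted p = 0.0720) were lost. Synm, a filament partner of vimentin, fell by 0.24 in WT (adjusted p = 0.0263).

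Genes that other work has tied to reactive astrocytes moved mostly upward where they passed. Over all genes, 13.2% rose and 12.2% fell in WT, and 14.1% rose and 13.3% fell in AcPb-/-. Of 12 pan-reactive genes, 6 rose and none fell in WT, and 2 rose and none fell in AcPb-/-, by limma, with medians of 0.25 and 0.19 log2. With a term for Xist, 3 of them rose in WT and 2 in AcPb-/-. The AcPb-/- counts of the pan-reactive and A1 sets lay near the share over all genes. Serpina3n, a secreted protease inhibitor, rose by 0.70 in WT (adjusted p = 0.00123), and with a term for Xist its estimate of 0.56 missed the threshold (adjusted p = 0.0513). Timp1, an inhibitor of matrix proteases, rose by 1.07 in WT (adjusted p = 0.0157) and by 1.84 in AcPb-/- (adjusted p = 7.16e-04). Of the 11 genes of the A1 set, 3 rose and 1 fell in WT and 1 rose in AcPb-/-, with Fkbp5, a chaperone induced by glucocorticoids, up by 1.24 and 1.18 (adjusted p = 6.65e-05 and 0.00220). Of the 12 genes of the A2 set, 3 rose and 1 fell in each genotype, with Ptgs2, cyclooxygenase 2, which cortical neurons also express, up by 0.97 and 1.03 (adjusted p = 2.93e-04 and 0.00690). The WT and AcPb-/- counts differ, but no gene of these lists passed the test of a difference between genotypes.

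Aldoc, the aldolase isoform that astrocytes share with Purkinje cells of the cerebellum, did not pass either. It lies on chromosome 11 (chr11:78322968-78327781, plus strand). Its normalized counts were 37764, 39745 and 37553 in CTL-WT, 43244, 41962 and 37882 in SD-WT, 32861, 37586 and 43333 in CTL-AcPb-/- and 36846, 40938 and 36755 in SD-AcPb-/-. The difference was 0.09 log2 (95% confidence interval -0.07 to 0.26) in WT and 0.02 (-0.22 to 0.26) in AcPb-/-.

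Of 15 genes of the aldolase family and of glycogen handling, 1 rose and 4 fell in each genotype, by limma, where 25.4% of all genes were called in WT and 27.4% in AcPb-/-. Ppp1r3c, which targets protein phosphatase 1 to glycogen and promotes its storage in astrocytes, rose by 0.42 in both (adjusted p = 0.00347 and 0.0120). Pygb, the brain form of glycogen phosphorylase, fell by 0.33 in WT (adjusted p = 0.00948) and by 0.35 in AcPb-/- (adjusted p = 0.00710). Pygl, the liver form, fell by 0.60 in WT (adjusted p = 0.0165), and with a term for Xist its estimate of -0.55 missed the threshold (adjusted p = 0.0889). Aldoa, the aldolase of neurons and muscle, stood at -0.14 and -0.19 and did not pass in either genotype alone.

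Fgfr3 lies on chromosome 5 (chr5:33721674-33737068, plus strand) and overlaps G630022F23Rik on the other strand over 437 bases. Its normalized counts were 4911, 6334 and 5514 in CTL-WT, 7016, 6550 and 5535 in SD-WT, 6334, 6455 and 7208 in CTL-AcPb-/- and 6774, 5870 and 5768 in SD-AcPb-/-. The groups overlapped under SD in both genotypes. The difference was 0.19 log2 (95% confidence interval -0.04 to 0.42) in WT and -0.12 (-0.30 to 0.07) in AcPb-/-. Without SD-WT replicate 4 the WT estimate was 0.29 and passed (adjusted p = 0.0453, limma).

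Of 18 genes of fibroblast growth factor signaling other than Fgfr3, 6 rose and 2 fell in each genotype, by limma, where 25.4% and 27.4% of all genes were called, and the list medians were 0.15 and 0.25 log2. Fgfr1, the paralog that neurons express as well, rose by 0.46 and 0.39 (adjusted p = 9.20e-04 and 0.00330), from 2482 to 2753 normalized counts in CTL-WT to 3473 to 3728 in SD-WT, whereas Fgfr2 stood at 0.14 and 0.26 and did not pass. Spred2, an inhibitor of the Ras pathway, rose by 0.87 and 0.73 (adjusted p = 7.40e-04 and 0.00841). Etv5, a transcription factor induced by these receptors, rose by 0.64 and 0.68 (adjusted p = 7.15e-04 and 0.00297). Fgfrl1, a receptor without a kinase, fell by 0.65 and 0.79 (adjusted p = 6.91e-04 and 0.0113). With a term for Xist, Fgfr1 stood at 0.42 and 0.34 and Fgfrl1 at -0.63 and -0.78. In the 8 libraries without Xist, with 1 library in each CTL group, Fgfr1 stood at 0.39 and 0.37 and Fgfrl1 at -0.64 and -0.76.

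**Figure D3:**
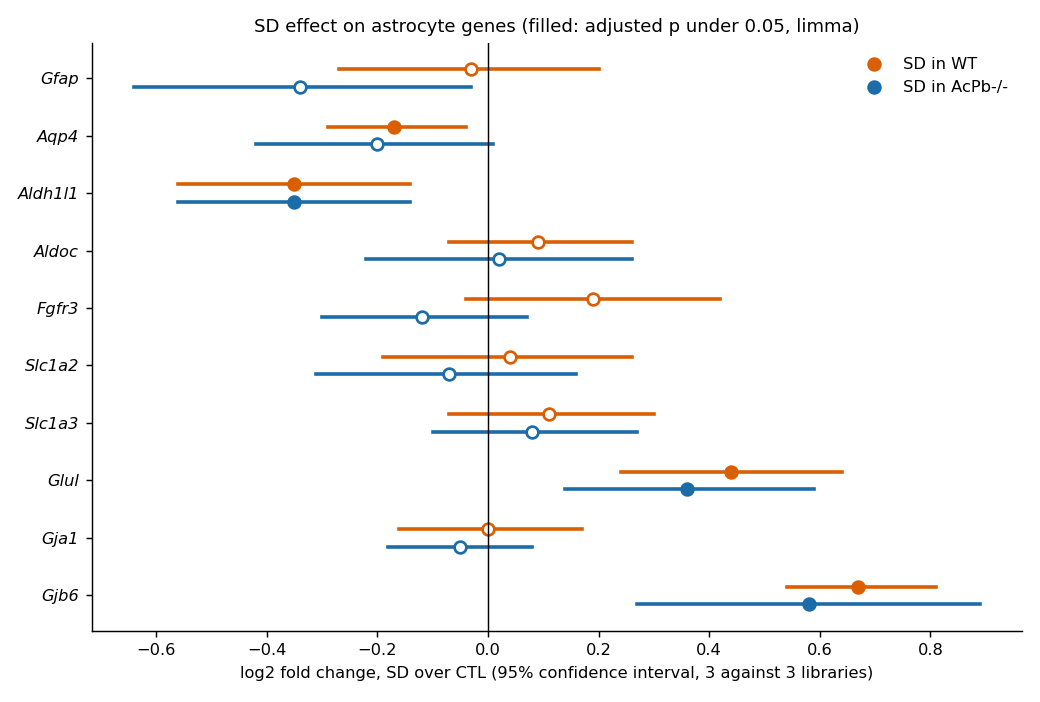
SD effect on the 10 astrocyte genes in WT and in AcPb-/- cortex, as log2 fold change with the 95% confidence interval from 3 against 3 libraries, filled where the adjusted p was under 0.05. Gjb6 (0.67 and 0.58) and Glul (0.44 and 0.36) lie to the right of 0 and Aldh1l1 (-0.35 in both) to the left, and the intervals of the genotypes overlap for each gene.

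Outside the 10 genes, 35 further astrocyte markers were divided in the same way. Of the 34 tested, 7 rose and 7 fell in WT, and 7 rose and 11 fell in AcPb-/-, by limma, with medians of 0.01 and -0.12 log2. The share of all genes called was 25.4% in WT and 27.4% in AcPb-/-. Among genes with a mean of at least 1000 normalized counts, which most of these markers exceed, it was 38.8% and 43.3%. Dio2, the deiodinase by which astrocytes activate thyroid hormone, rose most, by 1.34 and 1.27 (adjusted p = 3.97e-05 and 0.00137), from 3873 to 5318 normalized counts in the CTL libraries to 9129 to 14009 in the SD libraries. Htra1, a secreted serine protease, rose by 0.68 and 0.65 (adjusted p = 3.88e-04 and 0.00520). Tril, an accessory protein of Toll-like receptors, fell by 0.48 and 0.63 (adjusted p = 0.00111 and 0.00240). Mfge8, a secreted protein that bridges phagocytes to dying cells, fell by 0.55 in AcPb-/- (adjusted p = 0.00108). In the 8 libraries without Xist, where each CTL group was 1 library, the estimates were 1.47 and 1.57 for Dio2. They were 0.73 and 0.83 there for Htra1, and -0.55 and -0.63 for Tril. With a term for Xist, Dio2 (1.55 and 1.48), Htra1 (0.80 and 0.77) and Tril (-0.51 and -0.67) passed in both genotypes.

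The list counts of WT depended on that term more than those named genes did. With it, 5 of the further astrocyte markers rose and 3 fell, 3 pan-reactive genes rose, 5 endfoot genes fell, 1 gene of glutamate handling rose and 2 fell, and 1 filament gene rose and 1 fell. In AcPb-/- it left 5 rising and 8 falling astrocyte markers, 2 rising pan-reactive genes and 6 falling endfoot genes. Genes of fibroblast growth factor signaling stood at 8 rising and 2 falling in WT and at 7 and 2 in AcPb-/-. Over all genes, limma with the term called 4057 in WT and 5189 in AcPb-/-. The fit of 12 libraries without the term called 5108 and 6485, and the fits of each comparison 5186 and 5633.

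**Figure D4:**
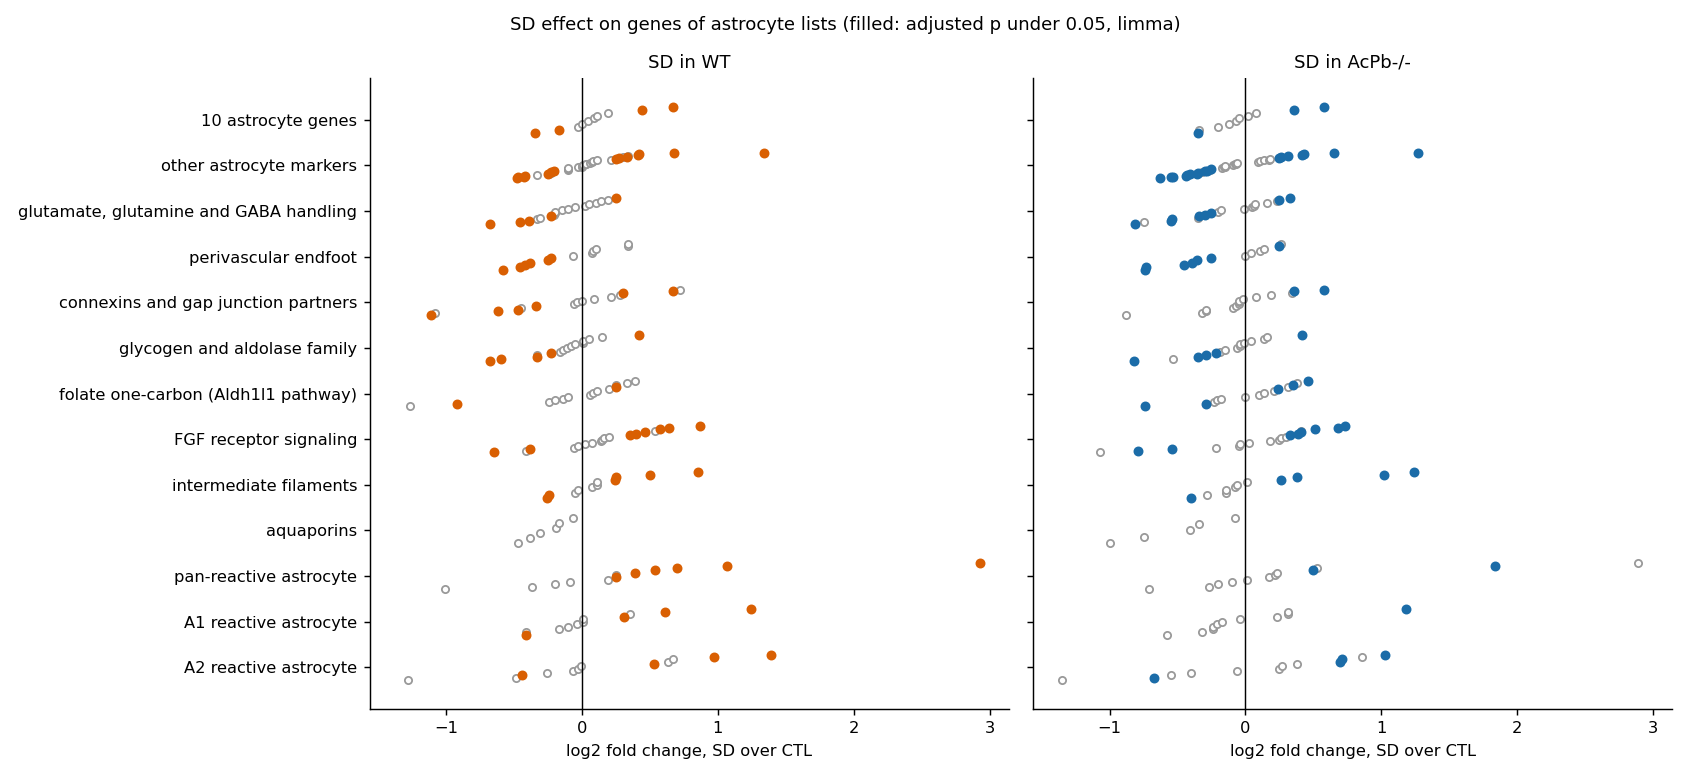
Log2 fold changes under SD of each gene of 13 lists, in WT (left) and AcPb-/- (right), filled where the adjusted p was under 0.05. Among the other astrocyte markers 7 rose and 7 fell in WT, whereas the perivascular endfoot genes that passed in WT all fell (6 of 12) and the pan-reactive genes that passed all rose (6 of 12).

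The marker lists of other cell types are given for the same SD contrasts, in which 25.4% and 27.4% of all genes were called. Of 10 oligodendrocyte genes, 6 fell in WT and 2 in AcPb-/-, by limma, where 12.2% and 13.3% of all genes fell. With a term for Xist 7 fell in WT and 4 in AcPb-/-. The summed level of these genes ranged from 998 to 2223 TPM within CTL-AcPb-/-, and none passed the test of a difference between genotypes. In WT 2 of 10 neuronal genes rose, 3 of 10 endothelial and pericyte genes rose and 1 fell, 1 of 10 microglial genes rose and 1 fell, and 3 of 8 meningeal fibroblast genes and 1 of 8 oligodendrocyte precursor genes fell. In AcPb-/- 2 of 10 neuronal genes rose, 2 of 10 endothelial and pericyte genes rose and 1 fell, and 3 of 10 microglial, 3 of 8 meningeal and 1 of 8 oligodendrocyte precursor genes fell. Summed levels overlapped between SD and CTL for neurons (12634 to 14382 against 12160 to 13678 TPM) and for oligodendrocytes (1175 to 1938 against 998 to 2512 TPM). Meningeal fibroblast sums were lower in SD without overlap, at 76.5 to 109 against 113 to 116 TPM in WT. In AcPb-/- they were 100 to 116 against 127 to 144 TPM. Oligodendrocyte precursor sums stood likewise at 205 to 230 against 235 to 276 TPM, and 209 to 222 against 226 to 293. Microglial sums lay apart in AcPb-/- (493 to 586 against 607 to 632 TPM) and overlapped in WT. Endothelial and pericyte sums overlapped in both genotypes. Choroid plexus and striatal markers gave 1 rising and 2 falling calls in WT and none in AcPb-/-. The part of these cell types in the astrocyte results was not tested.

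Between genotypes none of the 10 genes passed, either at rest or after SD, by limma. At rest limma called 4 of 20273 genes (0.0197%), edgeR 8 and DESeq2 93, and limma called 168 without CTL-AcPb-/- replicate 3, 2 without CTL-AcPb-/- replicate 5 and 0 without any other library. The lowest adjusted p of the 10 was 0.479, for Fgfr3, which was 0.26 log2 higher in AcPb-/- (95% confidence interval 0.06 to 0.46). It was the 1 member with an unadjusted p under 0.05 and the 1 whose groups did not overlap, as 14.4% of all genes did not, although CTL-WT replicate 2 and CTL-AcPb-/- replicate 3 both rounded to 6334. The other 9 lay between -0.13 and 0.18. After SD the share called was 0.0145%, which is 3 genes by limma, where edgeR called 9 and DESeq2 97, and limma called 0 to 4 with a library left out. There no member had an unadjusted p under 0.05, and none was free of overlap, against 11.4% of all genes. All 10 estimates were below 0 there, between -0.15 for Gjb6 and -0.05 for Fgfr3, and the intervals reached from -0.44 to 0.18. Neither edgeR nor DESeq2 called a member in these comparisons.

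Whether the SD effect depended on genotype was tested directly, as an interaction in the 12 libraries. By limma 0 of 20978 genes were called (0%), and the lowest adjusted p of the 10 was 0.986. Without adjustment 839 genes had a p under 0.05, none of them a member. Over all genes edgeR called 0 and DESeq2 1, which was no member, and limma called 9 without CTL-AcPb-/- replicate 3. The estimates furthest from 0 were those of Gfap (-0.31, 95% confidence interval -0.73 to 0.12) and Fgfr3 (-0.31, -0.63 to 0.01). For the genes that SD changed they were -0.10 for Gjb6 (-0.46 to 0.25), -0.08 for Glul (-0.37 to 0.21), 0.00 for Aldh1l1 (-0.32 to 0.32) and -0.04 for Aqp4 (-0.28 to 0.20). Each interval reaches to about the size of that gene's own SD effect or beyond, except that of Gjb6.

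Over both genotypes together, SD was called for 4 of the 10 genes, 2 up and 2 down, against 41.5% of all genes, 21.2% up and 20.3% down. The groups of both single comparisons were free of overlap for 4 members in WT and 3 in AcPb-/-, where 40.2% and 42.3% of all genes were. In WT edgeR called 3 members and DESeq2 4, and in AcPb-/- they called 3 and 4. Among genes with a mean of at least 1000 normalized counts, which all members exceed, 38.8% were called in WT and 43.3% in AcPb-/-.

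**Figure D5:**
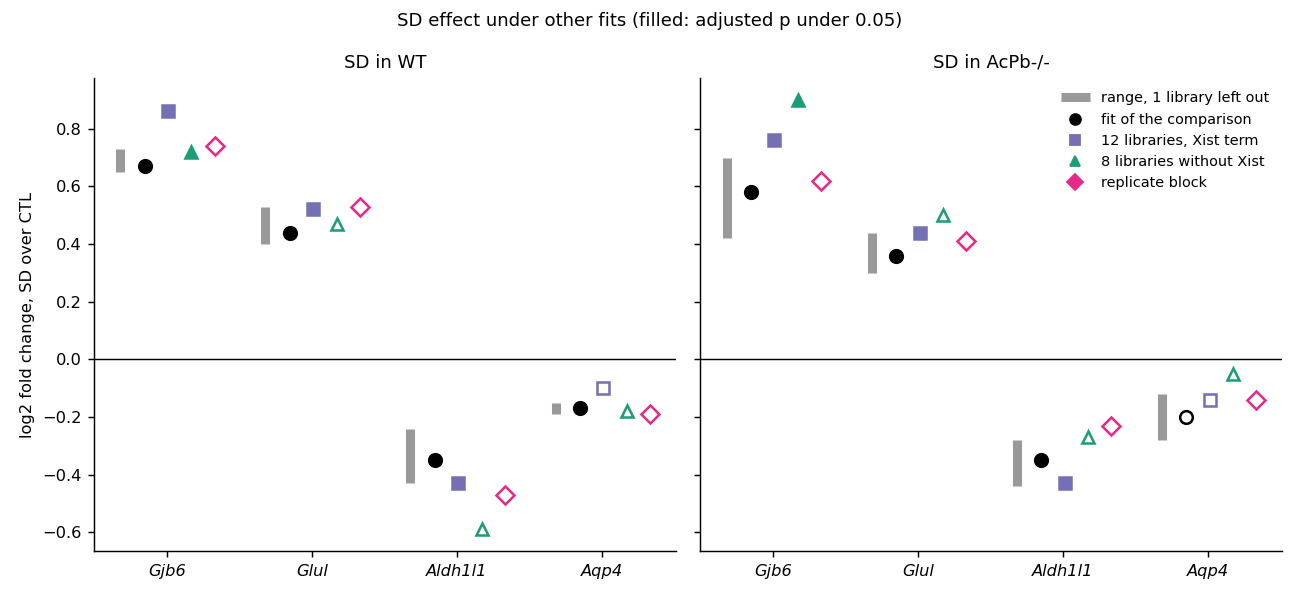
Log2 fold changes under SD of the 4 genes called in WT, in the fit of each comparison, with a term for Xist, in the 8 libraries without Xist and with a replicate block, beside the range over fits with 1 library left out, filled where the adjusted p was under 0.05. Every estimate of Gjb6 and Glul is above 0 and every estimate of Aldh1l1 and Aqp4 below it, and Aqp4 is filled in 1 fit only.

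Libraries of a group also differed from each other in a shared way. CTL-AcPb-/- replicate 3 held the lowest value of its group for 9 of the 10 genes and replicate 5 the highest for 8. In SD-WT, replicate 4 was lowest for 7 genes, with Gfap and Aldh1l1 as its highest. In CTL-WT, replicate 3 was lowest for 7 and replicate 1 highest for 5. Gja1 had the narrowest range over the 12 libraries (1.17-fold from lowest to highest), Slc1a2 followed at 1.23-fold, and Gjb6 had the widest at 2.10-fold.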

How the data were processed

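Somatosensory cortex RNA of the 4 groups was sequenced from stranded mRNA libraries. Per the study's methods and the submitters' processing notes, reads were aligned with HISAT2 2.2.1 to mm10. The methods name HTSeq for counting and the notes name featureCounts, and the annotation and strand setting are not given in the sources used here. The authors deposited 5 tables of 24421 genes whose signal is counts divided by DESeq2 size factors (version 1.31.16 in the notes), computed for 2 groups at a time. Their columns of mean, fold change, standard error, statistic and p-values were not used. Of 16 samples, 12 had a column, and the other 4 were not analysed here. The labels count mice, so each library was taken as 1 mouse. A value equalled a whole number of reads, within 0.01 of a read, in 100.0% of 732630 cases, and these reads gave the depths of 26504840 to 71857505 reads per library, at which counting error is small beside the spread between libraries.

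Each comparison of 2 groups used limma 3.58.1 in R 4.3.3 on log2(normalized count + 1), with a trend of the variance on the mean. All genes read at least once in the comparison entered, and p-values were adjusted over them by Benjamini-Hochberg, with a threshold of 0.05. The pseudocount of 1 makes fold changes of low genes smaller than they are. SD over both genotypes and the difference between genotypes were fitted in all 12 libraries, scaled together from the recovered reads. Fold changes come from the tables of 2 groups, and values per library from the joint scale. Replicates of the same group differed by 7.00 to 36.48 chi-square units per gene, so none was a repeat of another. Alternatives were edgeR 4.0.16 and DESeq2 1.42.0 on the recovered reads, other scaling, filters and pseudocounts, thinned reads, fits for Xist, a replicate block and each library left out. TPM used exon lengths of GENCODE M21, matched by symbol for 23376 genes (95.7%), and promoters came from RefSeq for 9 of the 10 genes. Named beside the 10 genes were their paralogs, the checks of the labels and, of each list, the 2 highest and 2 lowest changes past the threshold with a mean of at least 100 normalized counts, some of which are not reported here. The 10 genes and all lists were chosen with earlier results of these data known.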

Additional observations from a re-analysis of the deposited data

How the results depend on the processing

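The directions of Gjb6, Glul, Aldh1l1 and Aqp4 under SD held in every alternative run in WT, in AcPb-/- and over both genotypes, and the changes below touch calls or genes that did not pass. The 4 astrocyte genes called in WT became 1 in the 8 libraries without Xist and 0 with the replicate block, and the 3 called in AcPb-/- became 1 and 0. With 1 library left out the counts ranged from 2 to 5 in WT (2 without SD-WT replicate 1 or 2) and from 0 to 3 in AcPb-/- (0 without SD-AcPb-/- replicate 2, 1 without CTL-AcPb-/- replicate 4). Over all genes the calls went from 5186 to 687 and 0 in WT and from 5633 to 2097 and 0 in AcPb-/- in the same 2 fits, which have fewer libraries or residual degrees of freedom. Over both genotypes the count of 4 became 3 with a term for Xist and 5 with the block. Same-numbered libraries correlated by 0.10 and -0.07 in WT, -0.14 and -0.02 in AcPb-/-, -0.43 between CTL groups and 0.22 and 0.23 between SD groups, as deviations from group means over 16062 genes, so the numbers were not taken as pairs; CTL-WT and CTL-AcPb-/- share 1 number and had no such fit.

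Signs of genes that did not pass turned as follows, and the cause was not tested. In the 8 libraries without Xist the SD effect in WT was -0.02 for Slc1a3, -0.10 for Slc1a2 and -0.07 for Gja1, and in AcPb-/- 0.03 for Slc1a2. With a term for Xist it was -0.01 for Gja1 in WT and 0.00 for Fgfr3 in AcPb-/-, and with thinned reads -0.02 for Gja1 in WT. With the replicate block, AcPb-/- against WT after SD was 0.03 for Slc1a3 and 0.05 for Fgfr3. The difference of the SD effects turned in the 8 libraries for Aqp4 (0.14), Aldh1l1 (0.32), Slc1a3 (0.24), Slc1a2 (0.13), Gja1 (0.06), Gjb6 (0.18), Aldoc (0.10) and Glul (0.03). It turned with the replicate block for Aqp4 (0.03), Aldh1l1 (0.09), Slc1a3 (0.01), Gjb6 (0.04) and Aldoc (0.00), with thinned reads for Aqp4 (0.01), and for Aldh1l1 with TMM scaling (0.00), edgeR (0.01) and DESeq2 (0.01). With 1 library left out, SD effects ranged from -0.13 to 0.08 for Gfap, -0.01 to 0.11 for Slc1a2 and -0.04 to 0.08 for Gja1 in WT, -0.08 to 0.12 for Aldoc in AcPb-/-, and -0.04 to 0.02 for Slc1a2, -0.05 to 0.01 for Gja1 and -0.01 to 0.08 for Fgfr3 over both. AcPb-/- against WT ranged at rest from -0.11 to 0.05 for Aqp4, -0.08 to 0.04 for Slc1a3, -0.06 to 0.06 for Slc1a2, -0.06 to 0.02 for Gja1, -0.17 to 0.12 for Gjb6, -0.13 to 0.07 for Aldoc and -0.09 to 0.05 for Glul, and after SD from -0.15 to 0.02 for Fgfr3. The difference of the SD effects ranged from -0.12 to 0.04 for Aqp4, -0.12 to 0.08 for Aldh1l1, -0.10 to 0.02 for Slc1a3, -0.26 to 0.02 for Gjb6 and -0.18 to 0.02 for Aldoc.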
